A study of Mus musculus with 24 samples.

Results

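Histone mRNA was measured in bone marrow cells from the MHU-3 mission, in which mice were housed in space, through the clustered histone genes that are transcribed during DNA replication. Genes were taken as members when their Ensembl identifier mapped in GENCODE M21 to a symbol beginning Hist1h, Hist2h, Hist3h or Hist4h and to the type protein coding. This gave 67 of the 54752 genes of the table. Of these, 65 exceeded 1 TPM (a level per transcript length, scaled to the same total in each library) in at least 1 library and were tested among 12373 genes. The libraries came from 24 male mice on a C57BL/6 background, 6 in each of 4 groups. GC-WT and GC-KO mice were wild-type mice and Nrf2-KO mice of a ground run that copied the housing, feeding and timing of the flight at a site in Japan. FL-WT and FL-KO mice were wild-type mice and Nrf2-KO mice that had spent 31 days in space, with cells taken 2 days after landing. The flight mice were 8 weeks old when they were moved to the launch site, 3 weeks before launch. The age listed for the ground mice was also 8 weeks. Nrf2-KO mice lack the transcription factor Nrf2 in all cells of the body, and the marrow, from the pelvis and tibia, was cryopreserved and not sorted. Flight against ground therefore includes launch, landing, the time after it and the site, which cannot be told apart.

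Clustered histone genes encode the core histones H2A, H2B, H3 and H4, around which DNA is wound, and the linker histone H1. Their mRNAs are made mainly in S phase and end in a stem-loop in place of a poly(A) tail, and the protein SLBP binds this stem-loop for processing, translation and decay of the mRNA. Bone marrow holds many dividing precursors of the erythroid, myeloid and B lineages, in which histone mRNA is abundant. In RNA of whole marrow, fewer dividing cells and less histone mRNA per dividing cell cannot be told apart.

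The members were 6 H1, 18 H2A, 18 H2B, 12 H3 and 13 H4 genes. On GRCm38, 54 lay in the Hist1 cluster on chromosome 13 (21715763 to 23934851), 10 in the Hist2 cluster on chromosome 3 (96219865 to 96270132), 2 in the Hist3 cluster on chromosome 11, and Hist4h4 stood alone on chromosome 6. The members that were not tested were Hist1h2aa and Hist1h2ba, an H2A and an H2B gene known from testis, at 0.0258 TPM and 0.0667 TPM on average. Hist2h3c1, an H3 gene, was tested through 1 library, at 1.89 TPM in GC-WT 6, and was listed at 0 in the other mice.

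The stem-loop was searched in the annotated transcripts as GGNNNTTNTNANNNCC with bases 3 to 5 complementary to bases 12 to 14. It was found in 46 of the 67 members and in 0.142% of all 55450 genes. None of the 11 members whose annotated model holds the coding part only had a match. The form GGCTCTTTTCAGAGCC was shared by 26 members of the H1, H2A, H2B and H3 classes, and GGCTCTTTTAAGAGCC by 6. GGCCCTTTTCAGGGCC was carried by 7 members, which were all H4 genes. The stem-loops below are those of genes that the results turn on, and capitals mark the match within the transcript, written 5′ to 3′ in DNA letters.
Hist1h1c: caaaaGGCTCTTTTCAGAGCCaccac
Hist1h2ab: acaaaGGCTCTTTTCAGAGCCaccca
Hist1h2ap: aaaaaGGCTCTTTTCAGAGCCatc
Hist3h2ba: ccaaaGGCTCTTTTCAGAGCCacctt
Hist2h3c2: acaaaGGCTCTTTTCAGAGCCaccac
Hist1h3c: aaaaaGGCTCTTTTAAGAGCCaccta
Hist1h2bb: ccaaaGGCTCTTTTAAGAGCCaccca
Hist1h4n: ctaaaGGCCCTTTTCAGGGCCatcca
Hist1h4f: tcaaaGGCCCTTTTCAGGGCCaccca
Hist1h4i: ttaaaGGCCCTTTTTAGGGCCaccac
In Hist1h2ap the match ended 3 nt before the annotated end of the transcript and in Hist1h4n 31 nt before it. In Hist1h1c it ended 840 nt before the end, so the annotated model runs well past it.

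RefSeq promoter windows (GRCm38.p6, 250 bases before to 50 after the start) were matched by symbol for 62 members, in 64 windows. CCAAT, on either strand, was in every window of the H1, H2A, H2B and H3 classes and in 3 of 12 H4 windows, against 37.4% of all 32851 windows. TATAAA was in 54.7% of the members' windows and 13.6% of all. The octamer ATTTGCAT was in 7 of 19 H2A and 7 of 17 H2B windows, in none of the other classes, and in 1.74% of all. Windows of neighbouring H2A and H2B genes can overlap, so the same site can be counted in both classes. One window each of an H2A, an H3 and an H4 gene is shown because these classes differed in the comparisons that follow. Capitals mark the matches, on either strand. All 3 windows are on the minus strand of GRCm38.p6, at chr13:21753863-21754162 for Hist1h2ak, chr13:23745472-23745771 for Hist1h3c and chr13:21832148-21832447 for Hist1h4n.
Hist1h2ak: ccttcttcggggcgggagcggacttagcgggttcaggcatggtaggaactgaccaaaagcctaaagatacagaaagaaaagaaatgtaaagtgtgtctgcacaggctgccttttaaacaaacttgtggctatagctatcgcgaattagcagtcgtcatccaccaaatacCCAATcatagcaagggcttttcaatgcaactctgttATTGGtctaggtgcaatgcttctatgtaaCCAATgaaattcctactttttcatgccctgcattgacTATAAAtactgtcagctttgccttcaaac
Hist1h3c: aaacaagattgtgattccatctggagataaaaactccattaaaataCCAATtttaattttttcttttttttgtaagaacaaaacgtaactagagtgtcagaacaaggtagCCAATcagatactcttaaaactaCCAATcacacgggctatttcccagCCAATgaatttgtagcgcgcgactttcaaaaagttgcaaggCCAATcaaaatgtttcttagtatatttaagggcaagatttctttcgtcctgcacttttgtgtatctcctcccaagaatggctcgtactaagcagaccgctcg
Hist1h4n: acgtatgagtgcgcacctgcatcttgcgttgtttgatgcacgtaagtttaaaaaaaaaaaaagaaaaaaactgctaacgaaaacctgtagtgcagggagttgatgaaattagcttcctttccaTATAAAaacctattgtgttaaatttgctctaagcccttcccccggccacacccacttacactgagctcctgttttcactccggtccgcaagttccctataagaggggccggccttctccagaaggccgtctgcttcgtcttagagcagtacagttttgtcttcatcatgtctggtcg
Hist1h2ak holds both CCAAT and TATAAA, Hist1h3c holds CCAAT without TATAAA, and Hist1h4n holds TATAAA without CCAAT. A match describes the letters of these windows only.

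The values are TPM, so the depth of the libraries is unknown and no counting error can be given. Short non-coding RNAs (Rn7sk, Rn7s1, Rn7s2, Rmrp and Rpph1) took 35.2% of TPM in GC-KO 11, the lowest library, and 59.3% in FL-WT 5, the highest. Over all tested genes the median was below 0 on the log2 scale in each of the 4 comparisons, between -0.29 and -0.22. With median-of-ratios scaling it lay between -0.01 and 0.04, and splits under that scaling are given beside the main ones. Histone copies are nearly identical: 32 of the 67 members had over 50% of their 50-base stretches in another gene, so the assignment of reads among copies is uncertain. Nfe2l2, which encodes Nrf2, was at 17.1 to 26.1 TPM in GC-WT, 11.4 to 27.3 TPM in FL-WT, 3.60 to 7.18 TPM in GC-KO and 2.22 to 4.31 TPM in FL-KO mice. The genotypes did not overlap on the ground or after flight (p = 0.00216 in both cases by an exact permutation of rank sums, two-sided, which is the minimum for groups of 6).

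Histone genes were among the most abundant of the marrow. Their share of all TPM was 6.83% ± 1.10 (SD, n = 6) in GC-WT, 6.12% ± 1.09 (SD, n = 6) in FL-WT, 7.43% ± 0.566 (SD, n = 6) in GC-KO and 4.95% ± 0.591 (SD, n = 6) in FL-KO mice. FL-KO mice (3.98 to 5.57%) lay below all GC-KO mice (6.75 to 8.22%), while FL-WT and GC-WT mice overlapped. Of the 100 most abundant genes, 36 were members. Hist1h4n, an H4 gene, led with 4794 TPM on average and ranked 13 among all genes. Hist1h4f (H4) followed with 3688 TPM, Hist1h3c (H3) with 2828 TPM, Hist1h2ap (H2A) with 2712 TPM and Hist1h3b (H3) with 2379 TPM. These 5 genes held 25.9% of histone TPM and the top 20 held 65.6%. Hist2h2bb (1967 TPM) led the H2B genes, and Hist1h1c (1414 TPM) led the H1 genes.

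**Figure D1:**
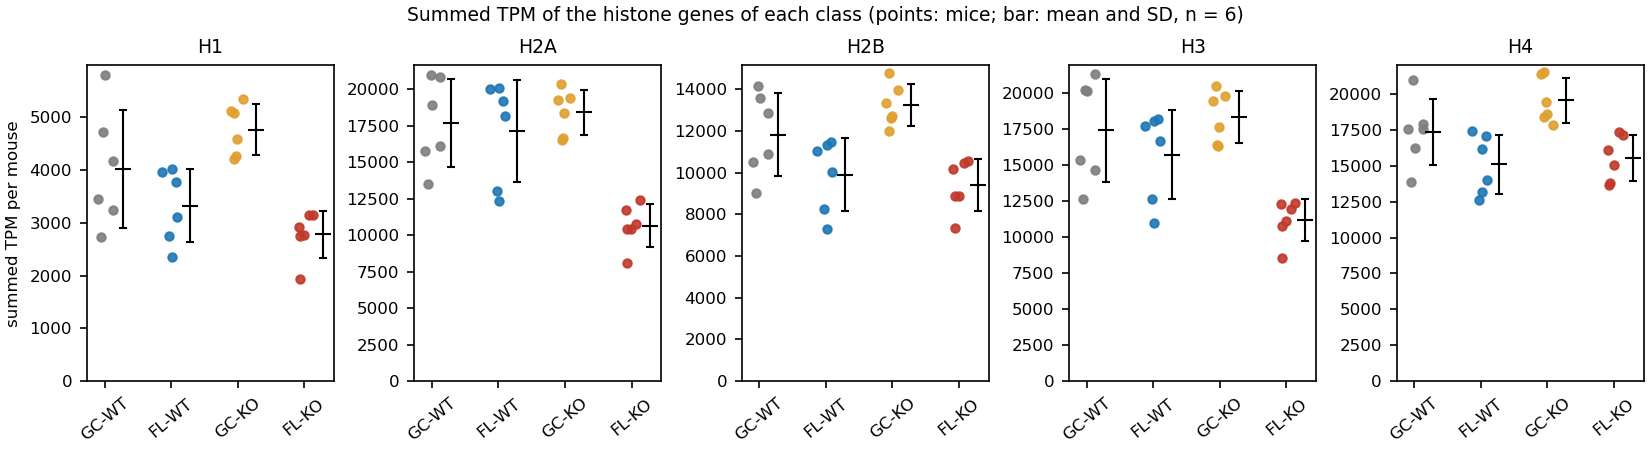
Summed TPM (y axis) of the H1, H2A, H2B, H3 and H4 genes in each mouse (points), with the mean and SD of 6 mice, by group (x axis). In each class the FL-KO mice lie below the GC-KO mice, for H2A at 8109 to 12442 TPM against 16509 to 20333 TPM, while FL-WT and GC-WT mice overlap.

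The comparison FL-KO vs. GC-KO asks what flight changed without Nrf2. Histone genes of every class fell at TPM as deposited: 61 of 65 members were lower at an adjusted p under 0.1 (limma, Benjamini-Hochberg over all tested genes), against 53.1% of all genes, and none was higher (0.299%). The median log2 fold change was -0.62, and that of all genes -0.29. DEGs were genes past adjusted p 0.1 with at least a 2-fold change, and 4 members were among them, namely Hist1h2ab, Hist1h2ak, Hist2h3c2 and Hist3h2ba (2.13% of all genes were lower DEGs and 0% higher). The number of DEGs among the members was 0 without FL-KO 2 and 2 without GC-KO 12. With median-of-ratios scaling, quantile normalization, removal of the trend with G+C content and length, or TPM without the short non-coding RNAs there was none. In 50 members all FL-KO mice lay below all GC-KO mice, as in 18.4% of all genes, and in none the reverse (0.0323%). Summed by class, the FL-KO mean was 0.579 of the GC-KO mean for H2A, 0.583 for H1, 0.608 for H3, 0.710 for H2B and 0.794 for H4. With median-of-ratios scaling 17 members were lower and 0 higher, with medians of -0.30 for H1, -0.30 for H2A, -0.25 for H3, -0.08 for H2B and 0.12 for H4, so the sign of H4 turned.

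All 6 H1 genes fell, with a median of -0.74. Hist1h1c, which encodes H1.2, was at 949 to 2332 TPM (median 1402) in GC-WT, 925 to 1575 TPM (median 1248) in FL-WT, 1593 to 2207 TPM (median 1902) in GC-KO and 711 to 1117 TPM (median 1059) in FL-KO mice. The Nrf2-KO groups did not overlap (log2 fold change -0.91 ± 0.17 (SE), limma adjusted p = 0.000327), and the wild-type groups did. Hist1h1a and Hist1h1b, the genes of H1.1 and H1.5, fell by 0.75 and 0.72 on the log2 scale.

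All 17 tested H2A genes fell, with a median of -0.74. Hist1h2ab (ENSMUSG00000061615.2, chromosome 13, 23751126 to 23751598, plus strand) was at 1675 to 2964 TPM (median 2359.7) in GC-WT, 1429 to 2722 TPM (median 2352) in FL-WT, 2186 to 2931 TPM (median 2668) in GC-KO and 935 to 1498 TPM (median 1271) in FL-KO mice. Flight separated the Nrf2-KO groups (log2 fold change -1.05 ± 0.16 (SE), limma adjusted p = 4.38e-05) and not the wild-type groups. Hist1h2ak (ENSMUSG00000063021.3, chromosome 13, 21753435 to 21753827, minus strand) was at 1120.2 to 1903 TPM (median 1412) in GC-WT, 856 to 1668 TPM (median 1336) in FL-WT, 828 to 1396 TPM (median 949.6) in GC-KO and 408 to 582 TPM (median 496) in FL-KO mice (log2 fold change -1.02 ± 0.17 (SE), limma adjusted p = 8.62e-05). The FL-KO mice lay below every other mouse for Hist1h2ak and overlapped the FL-WT mice for Hist1h2ab. Hist1h2ag and Hist1h2ap fell by 0.80 and 0.81.

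Of 17 tested H2B genes 16 fell, with a median of -0.52. Hist3h2ba (ENSMUSG00000056895.4, chromosome 11, 58948920 to 58949533, plus strand) was at 91.5 to 188 TPM (median 149) in GC-WT, 69.3 to 137 TPM (median 97.9) in FL-WT, 136 to 175 TPM (median 155) in GC-KO and 47.5 to 95.3 TPM (median 73.0) in FL-KO mice. The Nrf2-KO groups did not overlap (log2 fold change -1.11 ± 0.19 (SE), limma adjusted p = 0.000112). The 3 most abundant H2B genes, Hist2h2bb, Hist1h2bg and Hist1h2bb, fell by 0.38, 0.62 and 0.40, but with median-of-ratios scaling Hist2h2bb was at 0.06 and Hist1h2bb at 0.03.

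Of 12 H3 genes 11 fell, with a median of -0.69, and the exception was Hist2h3c1. Hist2h3c2 (ENSMUSG00000081058.5, chromosome 3, 96238108 to 96239127, minus strand) was at 931 to 1736 TPM (median 1258) in GC-WT, 654 to 1328 TPM (median 1033) in FL-WT, 884 to 1417 TPM (median 958) in GC-KO and 371 to 555 TPM (median 540.1) in FL-KO mice. Its FL-KO mice lay below all others (log2 fold change -1.08 ± 0.17 (SE), limma adjusted p = 6.31e-05). Hist1h3c, the most abundant H3 gene, was at 3145 to 3888 TPM (median 3436) in GC-KO and 1675 to 2368 TPM (median 2259.5) in FL-KO mice and fell by 0.70. Hist1h3b and Hist1h3i fell by 0.82 and 0.58.

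H4 genes had the smallest differences, with 11 of 13 lower and a median of -0.32. Hist1h4n (ENSMUSG00000069305.3, chromosome 13, 21831767 to 21832196, minus strand) was at 3665 to 5752 TPM (median 4665) in GC-WT, 3495 to 4944 TPM (median 4222) in FL-WT, 5400.1 to 6382 TPM (median 5530.2) in GC-KO and 3906 to 5349 TPM (median 4539) in FL-KO mice. The Nrf2-KO groups lay just apart (log2 fold change -0.32 ± 0.11 (SE), limma adjusted p = 0.0244), and the wild-type mice spanned the gap. Hist1h4f and Hist1h4k fell by 0.30 and 0.37. With median-of-ratios scaling Hist1h4n, Hist1h4f and Hist1h4k were at 0.12, 0.14 and 0.07.

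**Figure D2:**
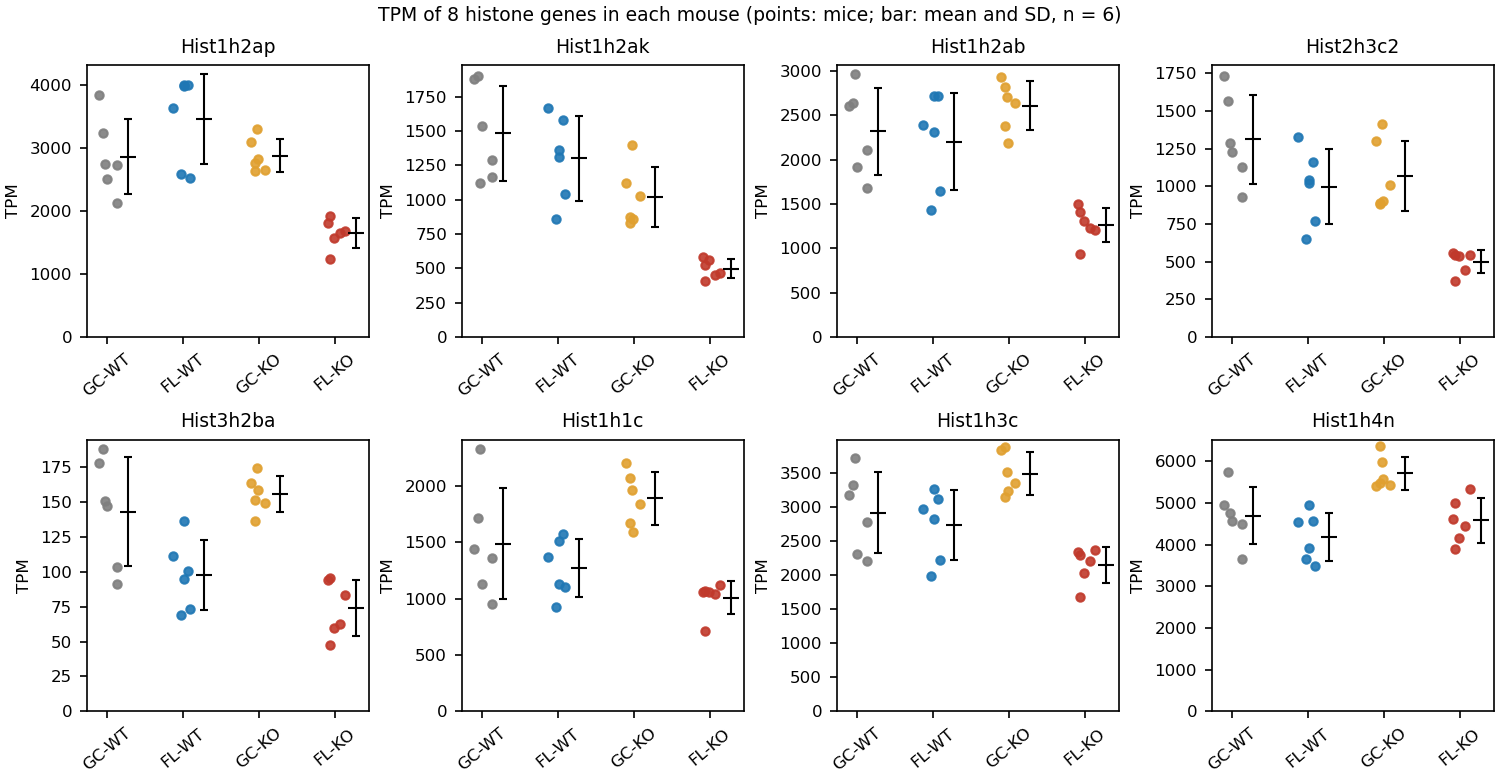
TPM (y axis) of 8 histone genes in each mouse (points), with the mean and SD of 6 mice, by group (x axis). FL-KO mice form the lowest group in Hist1h2ap (1238 to 1923 TPM), Hist1h2ak and Hist2h3c2, below every mouse of the other groups, and lie among the wild-type mice in Hist1h4n.

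FL-WT vs. GC-WT asks the same question with Nrf2 present. Here 18 of 65 members were lower, a smaller share than the 39% of all genes, and none was higher (0.994%). The median was -0.19, against -0.24 for all genes. No member was a DEG (0.938% of all genes were lower and 0.0647% higher DEGs). H2B genes made up 10 of the 18, and no H1 gene passed. Hist1h2bp, an H2B gene, was at 105 to 181 TPM (median 127) in GC-WT and 73.9 to 131 TPM (median 96.4) in FL-WT mice, which overlapped (log2 fold change -0.48 ± 0.15 (SE), limma adjusted p = 0.0197). Hist3h2a and Hist2h2aa1, both H2A genes, fell by 0.66 and 0.51, Hist1h2bl (H2B) by 0.46 and Hist2h4 (H4) by 0.41. By the exact permutation of rank sums the unadjusted p-value was 0.0649 for Hist1h2bp. For Hist3h2a, Hist2h2aa1, Hist1h2bl and Hist2h4 it was 0.0411, 0.00866, 0.0411 and 0.0152. The single member without overlap was Hist2h2be, an H2B gene at 3.62 TPM on average (4.19% of all genes were apart in this direction and 0.097% in the other). Hist1h4n and Hist1h3c did not pass, at -0.17 ± 0.11 (SE) and -0.09 ± 0.14 (SE). The count of lower members was 6 without FL-WT 5, 9 without GC-WT 8 and 10 without FL-WT 3. With median-of-ratios scaling 1 was lower and 12 were higher.

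**Figure D3:**
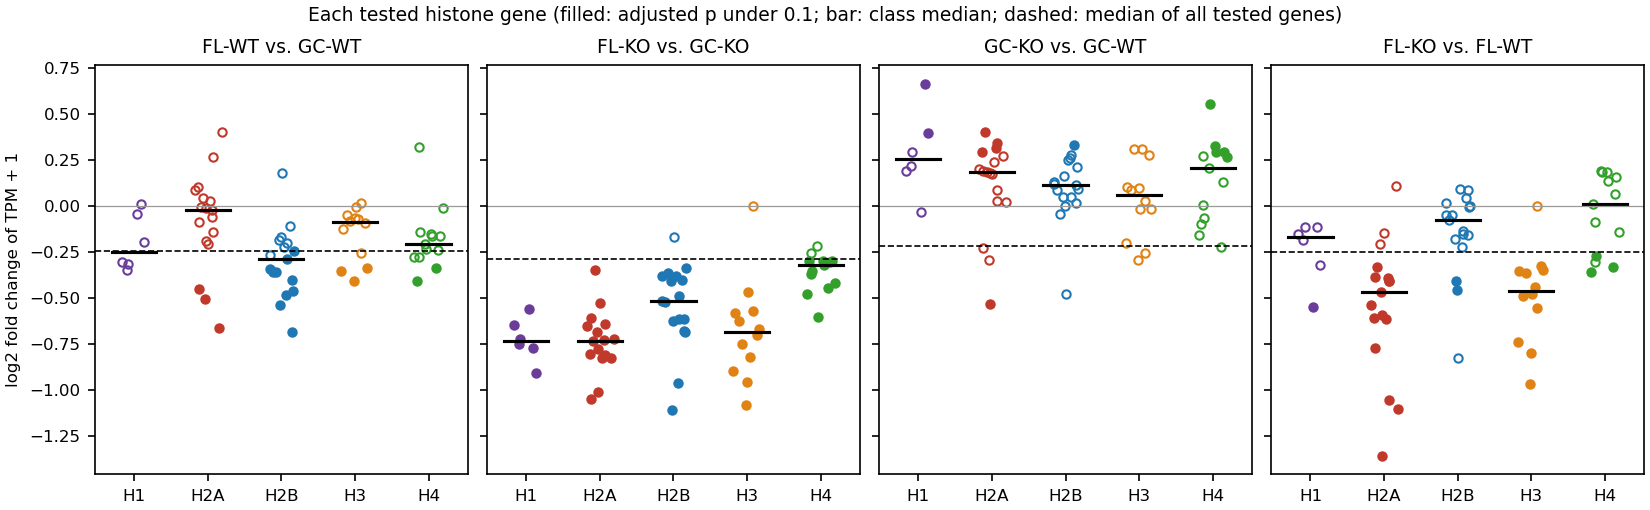
Log2 fold change of TPM + 1 (y axis) of each tested histone gene by class (x axis) in the 4 comparisons, with passing genes (adjusted p under 0.1) filled, class medians, and the median of all tested genes. In FL-KO vs. GC-KO the class medians run from -0.74 (H1) to -0.32 (H4), the latter 0.12 with median-of-ratios scaling. In FL-KO vs. FL-WT the H2A (-0.47) and H3 (-0.46) medians lie below H2B (-0.08) and H4 (0.01), and with that scaling the medians of H1, H2B and H4 are above 0.

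GC-KO vs. GC-WT gives the difference of genotype without flight. At TPM as deposited, histone genes stood higher relative to other genes: 12 of 65 members were higher, against 3.13% of all genes, and 1 was lower, against 42.9%. The median was 0.13, and that of all genes -0.22. The 12 were 5 H4, 4 H2A and 2 H1 genes and Hist1h2bb, and no member was a DEG (0.129% of all genes were higher and 3.04% lower DEGs). No member's groups were apart, where 9.15% of all genes were lower and 0.218% higher without overlap. Hist1h4i, an H4 gene, was at 106 to 199 TPM (median 131) in GC-WT and 187 to 228 TPM (median 194) in GC-KO mice, with some overlap (log2 fold change 0.56 ± 0.14 (SE), limma adjusted p = 0.00342). Hist1h4n rose by 0.29, Hist1h4f by 0.33, Hist1h2ad (H2A) by 0.40, Hist1h2bb by 0.33 and Hist1h1c by 0.40. By the exact permutation of rank sums their unadjusted p-values were 0.026, 0.0152, 0.00433, 0.00866 and 0.132 in that order. Hist1h1t, a linker histone gene known from testis, was at 0.400 to 2.26 TPM in GC-WT and 1.92 to 2.70 TPM in GC-KO mice and rose by 0.66. The member that fell was Hist1h2ak (log2 fold change -0.53 ± 0.17 (SE), limma adjusted p = 0.0131). The count of higher members was 5 without GC-WT 7, 6 without GC-WT 5 and 6 without GC-KO 4. That of lower members was 4 without GC-KO 12 or GC-WT 7 and 2 without FL-KO 2, FL-WT 5, FL-WT 7 or GC-KO 11. With median-of-ratios scaling 52 members were higher and 0 lower. With the trend of G+C content and length removed 49 were higher and 1 lower. With quantile normalization 17 were higher and 7 lower, with a median of 0.06 against 0.03 for all genes. Without the short non-coding RNAs 4 were higher and 6 lower, with a median of 0.01 against -0.35 for all genes.

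After flight, genotype (FL-KO vs. FL-WT) split the classes. In all 31 of 65 members were lower, against 47.2% of all genes, and none was higher (1.91%). Of the H2A genes 14 of 17 fell and of the H3 genes 11 of 12, with medians of -0.47 and -0.46. Of the H2B genes 2 of 17 fell, of the H4 genes 3 of 13 and of the H1 genes 1 of 6, with medians of -0.08, 0.01 and -0.17. The 3 DEGs were H2A genes of the Hist1 cluster, but there were 0 with median-of-ratios scaling, 0 with the trend of G+C content and length removed, 1 with quantile normalization and 5 without FL-KO 1 (8.36% of all genes were lower and 0.097% higher DEGs). Hist1h2ap (ENSMUSG00000094777.2, chromosome 13, 21833026 to 21833507, minus strand), the most abundant H2A gene, was at 2127 to 3847 TPM (median 2742) in GC-WT, 2531 to 4008 TPM (median 3814) in FL-WT, 2628 to 3299 TPM (median 2797) in GC-KO and 1238 to 1923 TPM (median 1662) in FL-KO mice. The genotypes were apart after flight (log2 fold change -1.06 ± 0.14 (SE), limma adjusted p = 2.83e-06) and overlapped on the ground. Hist1h2ak, with the levels given above, fell by 1.36 ± 0.17 (SE) (limma adjusted p = 1.17e-06). Hist1h2ao, with medians of 58.5 TPM in FL-WT and 27.2 TPM in FL-KO mice, fell by 1.11. Hist1h2ap and Hist1h2ao share 93.1% and 93.5% of their 50-base stretches with other genes, and Hist1h2ak 52.3%.

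Of the H3 genes, Hist2h3c2 and Hist2h3b fell by 0.97 and 0.74 in FL-KO vs. FL-WT, and the abundant Hist1h3b, Hist1h3c and Hist1h3i by 0.44, 0.33 and 0.35. Hist1h4n and Hist1h4f did not pass, at 0.13 ± 0.11 (SE) and 0.19 ± 0.11 (SE). In 7 members all FL-KO mice lay below all FL-WT mice, a smaller share than the 20.6% of all genes, and in none the reverse (0.307%). With median-of-ratios scaling 7 members were lower and 26 higher, with medians of 0.45 for H4, 0.37 for H2B, 0.19 for H1, -0.02 for H2A and -0.02 for H3. Hist1h3b, Hist1h3c and Hist1h3i were then at 0.0024, 0.12 and 0.09. This scaling moves the genes of a library nearly alike. The order of the class medians stayed the same in this comparison, while the signs of H1 and H2B turned. In FL-KO vs. GC-KO the nearly equal medians of H1 and H2A changed places.

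The interaction compares the flight difference of Nrf2-KO mice with that of wild-type mice. Of 65 members 62 had a value below 0, with a median of -0.40 against -0.06 for all genes. At an adjusted p under 0.1 a single member passed, Hist1h2ap (log2 difference -1.08 ± 0.20 (SE), limma adjusted p = 0.0746), where 0.0162% of all genes passed. Its flight differences were 0.27 ± 0.14 (SE) in wild-type and -0.81 ± 0.14 (SE) in Nrf2-KO mice. At an unadjusted p under 0.05, 30 members were below 0 and 0 above, against 3.03% of all genes below and 0.428% above. The members were 12 of 17 H2A, 10 of 12 H3, 3 of 6 H1, 4 of 17 H2B and 1 of 13 H4 genes. Under median-of-ratios scaling the members' median was -0.32 (-0.01 for all genes), and -0.22 (0.01) with the G+C and length trend removed. It was -0.20 (0.10) without the short non-coding RNAs and -0.19 (0.02) after quantile normalization. In that order, H2A medians were -0.65, -0.47, -0.54 and -0.52. H2B medians were -0.14, -0.08, -0.02 and 0.0023. H4 medians were -0.06, 0.04, 0.06 and 0.17, against -0.14 in the main fit, so the sign turned in all but the first. With 1 library left out at a time, no member passed adjustment in 14 of 24 fits, namely without FL-KO 2, FL-KO 4, FL-KO 12, FL-WT 6, FL-WT 7, FL-WT 8, FL-WT 10, GC-KO 1, GC-KO 2, GC-KO 9, GC-KO 11, GC-WT 3, GC-WT 5 or GC-WT 7. There were 4 without FL-WT 5 and 2 without FL-KO 9, FL-WT 3 or GC-WT 10. The comparisons share groups, so their values are set side by side only.

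Ratios between classes within a library do not depend on the scaling between libraries. They were not adjusted for G+C content, which differed between the classes as given below. The ratio of summed H2A to summed H2B TPM was 1.39 to 1.62 (median 1.49) in GC-WT, 1.58 to 1.82 (median 1.73) in FL-WT, 1.32 to 1.45 (median 1.39) in GC-KO and 1.03 to 1.18 (median 1.16) in FL-KO mice. FL-KO mice lay below all others, and GC-WT mice overlapped both FL-WT and GC-KO mice. The ratio of H3 to H4 was 0.818 to 1.24 in GC-WT, 0.832 to 1.19 in FL-WT, 0.839 to 1.11 in GC-KO and 0.618 to 0.788 in FL-KO mice, again with the FL-KO mice below all others. For H2B to H4, classes of nearly the same median G+C content, the groups overlapped in each of the 4 comparisons. That ratio was 0.597 to 0.837 in GC-WT, 0.553 to 0.715 in FL-WT, 0.624 to 0.782 in GC-KO and 0.532 to 0.651 in FL-KO mice. As a share of histone TPM, H4 genes held 26.3% ± 1.66 (SD, n = 6) in GC-KO and 31.4% ± 1.91 (SD, n = 6) in FL-KO mice. H2A genes held 27.9% ± 1.17 (SD, n = 6) in FL-WT, 24.8% ± 0.582 (SD, n = 6) in GC-KO and 21.5% ± 1.03 (SD, n = 6) in FL-KO mice. These sums over members are descriptions and carry no test.

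**Figure D4:**
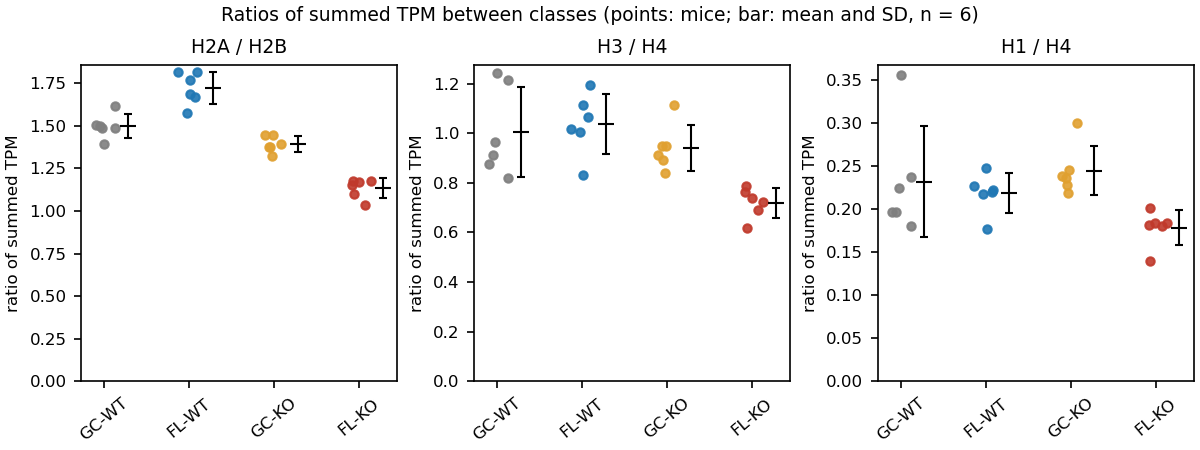
Ratios of summed TPM (y axis) of H2A to H2B, H3 to H4 and H1 to H4 genes in each mouse (points), with the mean and SD of 6 mice, by group (x axis). FL-KO mice lie lowest for H2A to H2B (1.03 to 1.18) and for H3 to H4 (0.618 to 0.788), and FL-WT mice have the highest median of H2A to H2B (1.73).

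H2A and H2B genes that are neighbours were also compared. In 12 places an H2A and an H2B gene were divergent, with annotated starts 176 to 306 bases apart, and in 11 both genes were tested. Some of these gene models, such as those of Hist1h2ak and Hist1h2bn, hold the coding part only. Their annotated starts are therefore not the starts of transcription. In FL-WT vs. GC-WT the H2A gene had the higher log2 fold change in 11 of 11 pairs, by a median of 0.35, and 7 H2B and 0 H2A genes passed. In FL-KO vs. GC-KO it had the lower value in 8 of 11 pairs, and 11 H2A and 10 H2B genes passed. In GC-KO vs. GC-WT it had the higher value in 8 of 11 pairs, with a median difference of 0.09, and 5 H2A and 0 H2B genes passed. In FL-KO vs. FL-WT it had the lower value in 10 of 11 pairs, with a median difference of -0.40, and 10 H2A and 1 H2B gene passed. The exception was the pair of Hist1h2ad and Hist1h2bf. Hist1h2ak fell by 1.36 in FL-KO vs. FL-WT, while its partner Hist1h2bn, with its annotated start 296 bases away, was at -0.16 ± 0.15 (SE) and did not pass. Hist1h2ag fell by 0.61, and its partner Hist1h2bj was at -0.05 ± 0.13 (SE). Most of the stretch between the annotated starts of Hist1h2ak and Hist1h2bn lies in the Hist1h2ak window printed above.

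**Figure D5:**
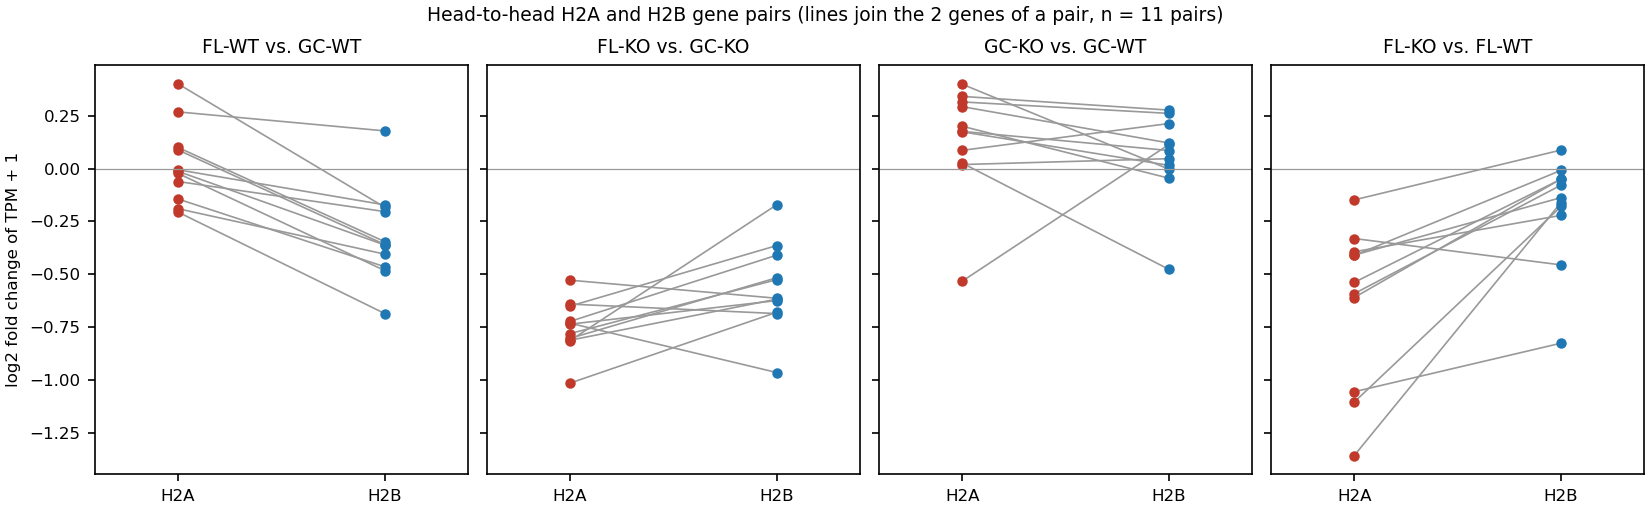
Log2 fold change of TPM + 1 (y axis) of the H2A and the H2B gene of 11 divergent pairs, joined by lines, in the 4 comparisons. The H2A gene is the higher in 11 of 11 pairs for FL-WT vs. GC-WT and 8 of 11 for GC-KO vs. GC-WT. It is the lower in 8 of 11 in FL-KO vs. GC-KO and 10 of 11 in FL-KO vs. FL-WT.

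Base composition differed between the classes. The median G+C content was 64.2% in H2A, 59.9% in H3, 56.2% in H4, 55.9% in H2B and 53.1% in H1 genes, and the H2A gene was the richer in 9 of the 11 pairs. Across the 65 members, Spearman's rho of log2 fold change with G+C content was -0.301 in FL-KO vs. GC-KO and -0.416 in FL-KO vs. FL-WT. For FL-WT vs. GC-WT the rho was 0.176, and for GC-KO vs. GC-WT it was -0.068. Across 12370 genes the values in the same order were -0.287, -0.512, -0.029 and -0.43. These are correlations across genes of the same libraries and not across mice. When the trend of each library with G+C content and length was removed, FL-KO vs. GC-KO had 30 lower members and 0 higher, with medians of -0.36 for H1, -0.33 for H2A, -0.29 for H3, -0.13 for H2B and 0.04 for H4. In FL-KO vs. FL-WT 4 were then lower and 26 higher, with medians of 0.06 for H2A, 0.09 for H3, 0.29 for H2B, 0.31 for H1 and 0.47 for H4. The H2A gene was then above its partner in 11 of 11 pairs in FL-WT vs. GC-WT, and below it in 7 of 11 in FL-KO vs. FL-WT. The part of base composition in the class differences was not tested further.

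Stem-loop and gene model gave closer medians than class did in FL-KO vs. GC-KO. There, members with and without a stem-loop in their model had medians of -0.61 (n = 46) and -0.64 (n = 19). Members with a transcript over 1000 nt or of more than 1 exon had a median of -0.56 (n = 19), and the others -0.62 (n = 46). Cluster medians differed in GC-KO vs. GC-WT, where all 12 higher members were in Hist1 (median 0.18, n = 52) and Hist2 had a median of -0.15 (n = 10), though the values of Hist2 members lay within the range of Hist1. In FL-WT vs. GC-WT 6 of 10 Hist2 members were lower (median -0.38) and 10 of 52 Hist1 members (median -0.15). No test of these differences is given.

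Genes that act beside histone mRNA in S phase were read from lists of their roles, with Slbp in both of the first lists. Of 36 genes of DNA replication, 34 fell in FL-KO vs. GC-KO (median -0.67) and 30 in FL-WT vs. GC-WT (median -0.49), with none higher. Of all tested genes 53.1% and 39% were lower in these comparisons, and the counts of the further lists are read against the same shares. With median-of-ratios scaling these medians were -0.34 and -0.18. In GC-KO vs. GC-WT 16 fell, a share close to the 42.9% of all genes, with a median of -0.25 against -0.22 for all genes (0.08 with that scaling). Pcna, the sliding clamp of DNA polymerase, fell by 0.51 in FL-KO vs. GC-KO and 0.34 in FL-WT vs. GC-WT, and Rrm2, a subunit of ribonucleotide reductase, by 1.04 and 0.80. Of 22 tested genes that act in histone gene transcription and mRNA processing, 18 and 16 fell in these comparisons, with medians of -0.46 and -0.39 (-0.12 and -0.09 with median-of-ratios scaling). Slbp, whose protein binds the stem-loops shown above, fell by 0.63 and 0.55. Of 21 histone chaperones, 20 and 16 fell, with medians of -0.55 and -0.41 (-0.24 and -0.13 with median-of-ratios scaling). Chaf1b, a subunit of the chromatin assembly factor CAF-1 that places H3 and H4 on new DNA, fell by 0.78 and 0.34. All 19 genes of mitosis fell in FL-KO vs. GC-KO (median -0.79) and 18 in FL-WT vs. GC-WT (median -0.69), with -0.39 and -0.36 under that scaling. Mki67, a marker of dividing cells, fell by 1.12 and 1.10. The medians of S phase and mitosis genes thus lay below that of all genes in both flight comparisons. The histone median lay below it in FL-KO vs. GC-KO and slightly above it in FL-WT vs. GC-WT, and the difference between lists was not tested.

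Genes of histone variants outside the histone clusters were called about as often as genes at large. Of 9 tested variant genes, 5 fell in FL-KO vs. GC-KO (median -0.28, or 0.15 with median-of-ratios scaling), where 53.1% of all genes were lower, and 3 in FL-WT vs. GC-WT (median -0.32, or 0.03), where 39% were. H3f3a, a gene of the replacement histone H3.3 at 733 TPM on average, fell by 0.33 in FL-KO vs. GC-KO. H2afz, the gene of H2A.Z, was at -0.20 ± 0.14 (SE) and did not pass. H2afx, the gene of H2A.X, fell by 1.06.

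Markers of marrow cell types were counted and summed beside the histone genes. No marker of these cell types was at 0 in all mice of a group. The 8 pro-B and pre-B markers summed to 154 to 213 TPM in GC-WT, 61.6 to 167 TPM in FL-WT, 88.6 to 138 TPM in GC-KO and 43.9 to 71.3 TPM in FL-KO mice, and all 8 fell in both flight comparisons. These sums did not overlap in FL-KO vs. GC-KO and in GC-KO vs. GC-WT, and overlapped in the other comparisons. Of 8 erythroblast markers 6 fell in FL-KO vs. GC-KO (median -1.01) and 5 in FL-WT vs. GC-WT (median -0.94), at TPM as deposited. In each comparison 4 were DEGs, where 2.13% and 0.938% of all genes were lower DEGs. Their sum was 50793 to 121030 TPM in GC-WT, 88057 to 121250 TPM in FL-WT, 99288 to 148380 TPM in GC-KO and 93635 to 136450 TPM in FL-KO mice, with overlap in every comparison. The list holds the globin genes Hbb-bs and Hba-a1, and a sum gives most weight to its most abundant members. The 5 promyelocyte markers summed to 649.7 to 1021 TPM, 556 to 1251 TPM, 409 to 845 TPM and 369 to 523 TPM in the same order of groups. The 8 neutrophil markers summed to 7132 to 9485 TPM, 7255 to 13287 TPM, 5649 to 8675 TPM and 6099 to 8200.1 TPM. In FL-KO vs. GC-KO 4 of 4 megakaryocyte, 7 of 7 tested stromal and muscle, 3 of 5 macrophage and 1 of 7 T and NK markers fell, where 53.1% of all genes were lower. The part of these cell types in the histone results was not tested.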

How the data were processed

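RNA-seq of bone marrow cells was analysed in 24 libraries, each from a separate mouse. The authors extracted total RNA with ISOGEN-LS, and the libraries (MGIEasy RNA Directional kit) were read on a DNBSEQ-G400. Whether poly(A) selection or rRNA depletion was used is not given in the sources used here, and histone mRNA without a poly(A) tail is recovered differently by the 2 methods. STAR 2.6.1 and RSEM 1.3.1 are named in the submitters' processing notes. The deposited values are TPM computed by the authors with 54752 rows, of which 26504 were at 0 in every library. Columns summed to between 999999.5 and 1000001.1, so depth and counting error are unknown. Rows were joined to GENCODE M21 by Ensembl identifier (54723 matched).

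Genes above 1 TPM in at least 1 library (12373) were tested by limma (3.58.1, R 4.3.3) after adding a pseudocount of 1 to TPM and taking log2. The fit held all 24 libraries and 1 mean per group, and p-values were adjusted by Benjamini-Hochberg over all of them. A fold change on this scale understates the change of low genes. Single genes were also tested by an exact permutation of rank sums, two-sided. Class sums and ratios were computed in each library without a test. Tables were made with pandas 2.3.3, scipy 1.17.1 and numpy 2.4.6 and figures with matplotlib 3.10.9, all under Python 3.11.15. In simulated data for FL-WT vs. GC-WT on 12373 genes, 199 of 200 genes changed by 1.5 on the log2 scale were recovered (99.5%). Of 12173 unchanged genes 19 were called. The measured histone genes ran from -0.69 to 0.40 in this comparison, and the lowest value in any comparison was -1.36, in FL-KO vs. FL-WT. Recovery of genes with differences as small as these was not tested.

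Members and lists were chosen with earlier results of these data known. Named members were the 3 most abundant of each class, the 5 with the smallest limma p in each comparison among those averaging at least 5 TPM, all DEGs and the testis histones. Named list genes were the 3 most abundant and the 2 with the smallest p in each comparison. The H2A and H2B pairs, and Hist1h2bn, Hist1h2bj, Hist1h2bf, Hist2h2be and Hist2h3c1, were chosen after their values were seen, as were the class, list and pair values under other scalings. Alternatives were a pseudocount of 0.1, other filters, median-of-ratios scaling, quantile normalization, TPM without 5 small RNAs, removal of a loess trend (span 0.3, 10419 genes) with G+C content and length, limma-trend, fits of 2 groups, a replicate block, adjusted p under 0.05, and each library left out.

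Mouse numbers are shared by ground and flight mice of a genotype. Deviations of same-numbered mice correlated between -0.026 and 0.273, not all above 0.1, so the numbers were not taken as pairs.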

Additional observations from a re-analysis of the deposited data

Results flagged for a closer look

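In groups of 6 mice, a library was looked at again when the gap between the highest or lowest mouse and its neighbour, divided by the range of the group, was above Dixon's critical value. Chance gives about 1 in 20 such groups, and 144 groups were examined. The summed TPM of the H1 genes in FL-KO mice had a gap of 0.678, with FL-KO 2 lowest. For Hist1h1c in FL-KO mice the gap was 0.809, again with FL-KO 2 lowest. For Hist1h4i in GC-KO mice it was 0.628, with GC-KO 4 highest, and for Hist1h2ao in GC-KO mice 0.728, with GC-KO 2 highest. For Hist1h2ap the difference between the genotypes in the flight difference was -1.08 on the log2 scale (Nrf2-KO minus wild-type mice, limma adjusted p = 0.0746). No histone gene passed for this term in 14 of 24 fits with 1 library left out, with a pseudocount of 0.1, without a filter, without the 5 small RNAs, or at adjusted p under 0.05.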

How the results depend on the processing

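The scaling between libraries decided most counts, and the cause was not tested. With median-of-ratios scaling, FL-KO vs. GC-KO had 17 lower members and 0 DEGs, FL-KO vs. FL-WT 7 lower, 26 higher and 0 DEGs, FL-WT vs. GC-WT 1 lower and 12 higher, and GC-KO vs. GC-WT 52 higher and 0 lower. Named genes then turned sign in FL-KO vs. GC-KO, with Hist1h2bb at 0.0347, Hist1h4f at 0.14, Hist1h4k at 0.0662, Hist1h4n at 0.12, Hist2h2bb at 0.0553 and Hist2h4 at 0.14. In FL-KO vs. FL-WT Hist1h2ad was at 0.11, Hist1h3b at 0.0024, Hist1h3c at 0.12, Hist1h3i at 0.0906 and Hist3h2ba at 0.0293. With the trend of G+C content and length removed, FL-KO vs. GC-KO had 30 lower members and 0 DEGs, FL-KO vs. FL-WT 4 lower, 26 higher and 0 DEGs, FL-WT vs. GC-WT 6 lower and 5 higher, GC-KO vs. GC-WT 49 higher, and the interaction 2. In FL-KO vs. GC-KO Hist1h4f was then at 0.0631, Hist1h4k at 0.0187, Hist1h4n at 0.036 and Hist2h4 at 0.0659, and in FL-KO vs. FL-WT Hist1h2ad at 0.25, Hist1h3b at 0.17, Hist1h3c at 0.18, Hist1h3i at 0.19, Hist2h2aa1 at 0.20 and Hist3h2ba at 0.13. With quantile normalization, FL-KO vs. GC-KO had 0 DEGs and 1 higher member, FL-KO vs. FL-WT 1 DEG and 11 higher, FL-WT vs. GC-WT 1 higher, GC-KO vs. GC-WT 7 lower, and the interaction 5. Hist1h4f was then at 0.17 and Hist1h4n at 0.30 in FL-KO vs. GC-KO, and the median log2 fold change of histone genes less that of all genes (the relative median) came to -0.16 for FL-WT vs. GC-WT and 0.0341 for GC-KO vs. GC-WT.

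Without the 5 small RNAs, FL-KO vs. GC-KO had 0 DEGs, FL-KO vs. FL-WT and FL-WT vs. GC-WT 1 higher member each, GC-KO vs. GC-WT 4 higher and 6 lower, and the interaction 0. Without a filter, FL-KO vs. FL-WT had 1 higher member, GC-KO vs. GC-WT 7 higher and the interaction 0, and the relative medians were -0.26 in FL-KO vs. FL-WT, -0.56 in FL-KO vs. GC-KO and 0.14 in GC-KO vs. GC-WT. With 2 groups in the fit, FL-WT vs. GC-WT had 9 lower and GC-KO vs. GC-WT 2 lower members. With a pseudocount of 0.1, GC-KO vs. GC-WT had 1 DEG and the interaction 0. At adjusted p under 0.05, FL-WT vs. GC-WT had 11 lower members, GC-KO vs. GC-WT 6 higher and the interaction 0.

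With 1 library left out at a time, DEGs numbered 0 to 6 in FL-KO vs. GC-KO (0 without FL-KO 2) and 2 to 5 in FL-KO vs. FL-WT. Lower members numbered 55 to 61 in FL-KO vs. GC-KO, 23 to 34 in FL-KO vs. FL-WT, 6 to 25 in FL-WT vs. GC-WT, 1 to 4 in GC-KO vs. GC-WT and 0 to 4 in the interaction. Higher members numbered 5 to 16 in GC-KO vs. GC-WT, 0 to 2 in FL-WT vs. GC-WT (2 without GC-WT 6, 1 without FL-WT 3, FL-WT 5, FL-WT 7 or GC-WT 10) and 0 to 1 in FL-KO vs. FL-WT (1 without FL-WT 6). The relative medians ran from -0.38 to -0.28 in FL-KO vs. GC-KO, -0.10 to 0.04 in FL-KO vs. FL-WT, -0.04 to 0.10 in FL-WT vs. GC-WT and 0.28 to 0.41 in GC-KO vs. GC-WT.

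With the mouse number as a replicate block, FL-WT vs. GC-WT had 25 lower and 1 higher members, FL-KO vs. GC-KO 61 lower, and the interaction 6. The mice share only a number, and GC and FL mice 7, 9 and 11 correlated best with their own number while the others did not. The genotypes share no number, so no block was possible between them.

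TPM gives no depth, so a small difference in a low gene cannot be set against counting error. The reads of near-identical copies cannot be assigned with certainty, so values of single genes are less sure than class sums. All mice of a group shared housing and a flight or ground run, which cannot be told apart from the group.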
